A study of Arabidopsis thaliana with 62 samples.

Results

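Darkness was compared with light in plastid DNA of 14-day-old Arabidopsis thaliana, separately in a membrane fraction and in a stroma fraction of the chloroplasts, and then as the difference of the membrane/stroma ratio between the conditions. The comparison uses 12 of the 62 samples of the series, 3 in each of 4 groups, and they were chosen by the age, condition and fraction in their titles. All 12 are wild-type Col0 plants grown on soil in a cycle of 16 h light and 8 h dark. Day plants were collected 2 h into the light, and Night plants after 24 h in total darkness, so Night differs from Day in the length of the dark period as well as in the light at harvest. Chloroplasts were pelleted from 5 g of rosette leaves, homogenised in a blender, and treated with 4% formaldehyde for 4 h after isolation. The assay, SOLINA, sequences the DNA that stays with the membranes and the DNA that stays in the stroma. The limma fit also held 6 libraries each of 4-day-old Col0, sig2-2 and sig6-1 seedlings, grown under continuous light. They shared its estimate of spread and are set beside the leaf libraries in places below. The sig2-2 and sig6-1 lines carry mutations in sigma factor genes. Nothing in the labels says that replicates were separate plants or preparations, so p-values measure only the spread between these samples.

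Plastid DNA is packed with proteins into nucleoids, many of which are attached to the thylakoid or envelope membranes. It is transcribed by a plastid-encoded RNA polymerase, which reads the photosynthesis genes, most tRNA genes and the rRNA operon and depends on nuclear-encoded sigma factors, and by a nuclear-encoded polymerase that reads mainly housekeeping genes. The rRNA operon lies in a large inverted repeat, so each plastid genome carries it in duplicate, and it is among the most heavily transcribed plastid regions in leaves. Light raises the transcription of many photosynthesis genes, and the psbD operon, which encodes a photosystem II reaction-centre protein, has a promoter that responds to light.

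Each value below is scaled coverage, the mean read coverage of a gene or a 500-bp window divided by the mean of the whole plastid genome in the same library. A change is the Night minus the Day value on the log2 scale. Scaled coverage is relative, so a rise of one stretch and a fall of the rest of the genome cannot be told apart. Mean coverage per base was 174, 575 and 789 in Day membrane, 95.4, 165 and 291.5 in Night membrane, 907, 1235 and 1596 in Day stroma, and 507, 640 and 1046 in Night stroma. The Night libraries were shallower on average in both fractions, with overlap (exact two-sided permutation p = 0.2 in each fraction), and the part of depth in the results was not tested.

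Day stroma replicate 3 stood apart from all libraries outside its group. Over 257 windows its log2 profile correlated at r = 0.76 and 0.55 with the other Day stroma libraries, between -0.13 and -0.05 with Day membrane, and between 0.00 and 0.17 with Night stroma. The main counts of calls in stroma are given with and without it. Without it, the remaining pair of Day stroma libraries correlated at 0.85. That pair was not uniformly distinct from Night stroma: replicate 2 correlated with the Night stroma libraries at 0.75, 0.73 and 0.83, and replicate 1 at 0.43, 0.39 and 0.53. The Night libraries were alike across fractions: the 9 pairs of a Night membrane and a Night stroma library had r of 0.80 to 0.97 (median 0.94), against 0.37 to 0.70 (median 0.54) for the 6 pairs of Day membrane with the other Day stroma libraries. Windows share libraries and base composition, so these correlations are descriptions.

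**Figure D1:**
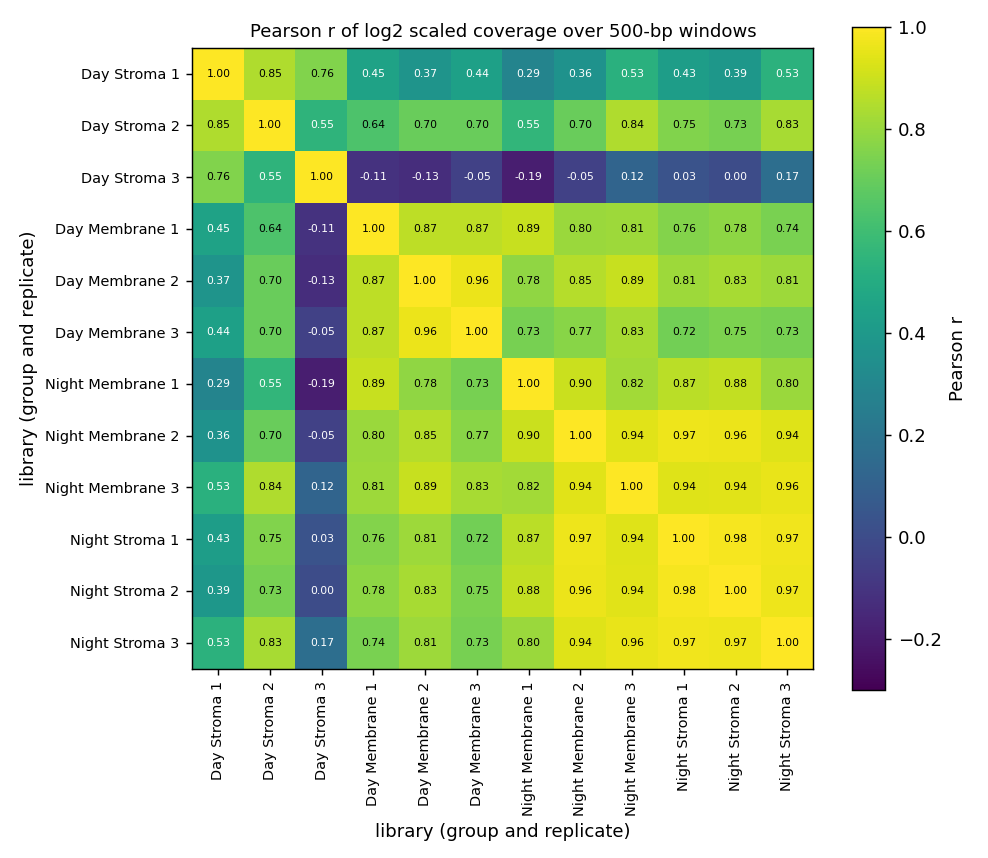
Pearson r between the log2 scaled coverage of each pair of the 12 leaf libraries over 257 windows of 500 bp, with libraries ordered by group. Day stroma replicate 3 has r at or under 0.17 with every library outside its group, while Night membrane and Night stroma libraries correlate at 0.80 to 0.97 with each other.

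The rRNA operon was far better covered in Night stroma than in Day stroma. The operon was taken from position 101012, the start of rrn16S, to 108069, the end of the stretch that mirrors the rRNA gene ArthCr091. Its coverage divided by that of the single-copy regions was 0.870, 1.08 and 0.637 in the Day stroma libraries and 2.24, 2.08 and 1.63 in the Night stroma libraries. The groups did not overlap, and the log2 difference was 1.22 (SE 0.26, exact two-sided permutation p = 0.1, the smallest that 3 against 3 can give). Without Day stroma replicate 3 it was 1.02. In the membrane fraction the same ratio was 2.15, 2.10 and 1.78 in Day and 2.67, 2.57 and 1.76 in Night. These groups overlapped, and the log2 difference was 0.19 (SE 0.21, exact two-sided permutation p = 0.5). Of the leaf groups, Day stroma alone had operon coverage near or under that of single-copy DNA. The fit also held libraries of 4-day-old seedlings grown under continuous light, either Col0 or one of sig2-2 and sig6-1, which carry mutations in sigma factor genes. In their stroma libraries, 3 of each genotype, the ratio was 1.72 to 2.23 in Col0, 1.62 to 3.35 in sig2-2 and 2.11 to 3.09 in sig6-1.

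Coverage was also less even along the whole genome after darkness. The SD of log2 scaled coverage over windows was 0.230, 0.248 and 0.25 in Day stroma and 0.663, 0.527 and 0.483 in Night stroma, with no overlap (exact two-sided permutation p = 0.1, the smallest possible). With the operon left out the stroma difference was 0.293 (SE 0.0511). In membrane the SD was 0.420, 0.436 and 0.367 in Day and 0.527, 0.623 and 0.416 in Night, which overlapped, although with the operon left out the membrane groups no longer did (difference 0.109, SE 0.0507). The share of positions covered at under 0.5 times the library mean was 2.85%, 3.04% and 1.21% in Day stroma and 24.6%, 17.3% and 12.9% in Night stroma. It was 5.11%, 5.01% and 3.26% in Day membrane and 17.6%, 19.8% and 8.52% in Night membrane, so on this measure both fractions separated the conditions (exact two-sided permutation p = 0.1 in each). In the seedling stroma libraries the SD was 0.518 to 0.596 in Col0, 0.284 to 0.748 in sig2-2 and 0.516 to 0.768 in sig6-1, all above the Day stroma libraries of the leaf.

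**Figure D2:**
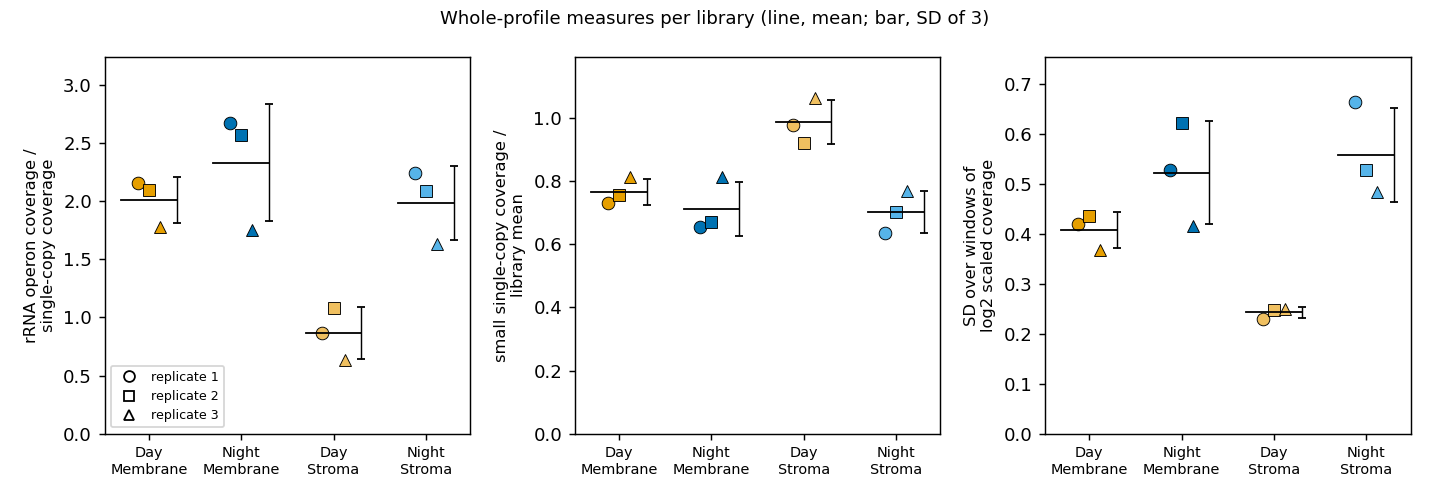
Measures of each leaf library by group, with the ratio of rRNA operon to single-copy coverage, the small single-copy coverage over the library mean, and the SD of log2 scaled coverage over windows; points are replicates, lines means and bars SD (n = 3). The Day stroma libraries (operon ratio 0.637 to 1.08) lie apart from the Night stroma libraries (1.63 to 2.24), while Day and Night membrane overlap.

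In the stroma, 153 of the 257 tested windows (59.5%) had a limma adjusted p under 0.05. Darkness raised 46 (17.9%) and lowered 107 (41.6%), and in all 153 the 3 Night libraries lay outside the range of the 3 Day libraries, as they did in 77.8% of all windows (26.5% higher, 51.4% lower). The rises were strongest over the operon and the falls over the small single-copy region and spacers. Of the 15 operon windows 15 rose (median change 1.04), and of the 36 small single-copy windows 0 rose and 23 fell (median -0.60), against a median of -0.17 over all windows. Without Day stroma replicate 3, 109 windows passed, 39 higher and 70 lower, with 15 of the operon windows still higher and 19 of the small single-copy windows lower. The count of higher against lower calls depended on the scaling: it was 77 against 85 when libraries were scaled to their median window and 85 against 72 when scaled to the single-copy mean, because these scalings raised the median stroma change by 0.15 and 0.20. The operon windows were all higher under both, and 22 small single-copy windows were lower and 3 higher with single-copy scaling.

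The 3 highest windows of the stroma contrast were all in rRNA genes. Positions 101501 to 102000 of the plastid chromosome (TAIR10), in rrn16S, had scaled coverage of 0.756, 1.02 and 0.639 in Day stroma and 1.97, 1.97 and 1.48 in Night stroma, a change of 1.18 (SE 0.19, limma adjusted p 8.68e-05). Positions 106001 to 106500 in rrn23S (1.15) and 102501 to 103000 at the end of rrn16S and the start of trnI (1.08) followed. The 3 lowest were positions 123501 to 124000 across rps15 and ycf1 (-1.50), 4501 to 5000 with no annotated gene (-1.45) and 65001 to 65500 with no annotated gene (-1.29). At 123501 to 124000 the Day stroma libraries read 0.760, 0.713 and 0.987 and the Night stroma libraries 0.221, 0.358 and 0.302, so the groups were far apart. Of 27 windows outside the operon with under 0.1 of their length annotated as a gene, 15 fell and 2 rose (median -0.47), against 35 that fell and 20 that rose among 113 with at least 0.9 annotated (median -0.09). Of the 102 between these limits 57 fell and 9 rose (median -0.28), so frequent falls were not particular to unannotated windows.

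Neighbouring windows moved together in 15 stretches of 3 or more, 3 higher and 12 lower. The longest, positions 100001 to 108500, held 17 windows from trnV to trnR with a mean change of 0.92. It was followed by a stretch of 12 lower windows at 110001 to 116000 (mean -0.74), across the end of the repeat, ndhF, rpl32, ccsA and part of ndhD. Between positions 55001 and 58000 the direction turned: 3 windows at rbcL rose (mean 0.49) and the next 3, reaching into accD, fell (mean -0.72). Neighbouring windows share DNA fragments and are not independent.

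**Figure D3:**
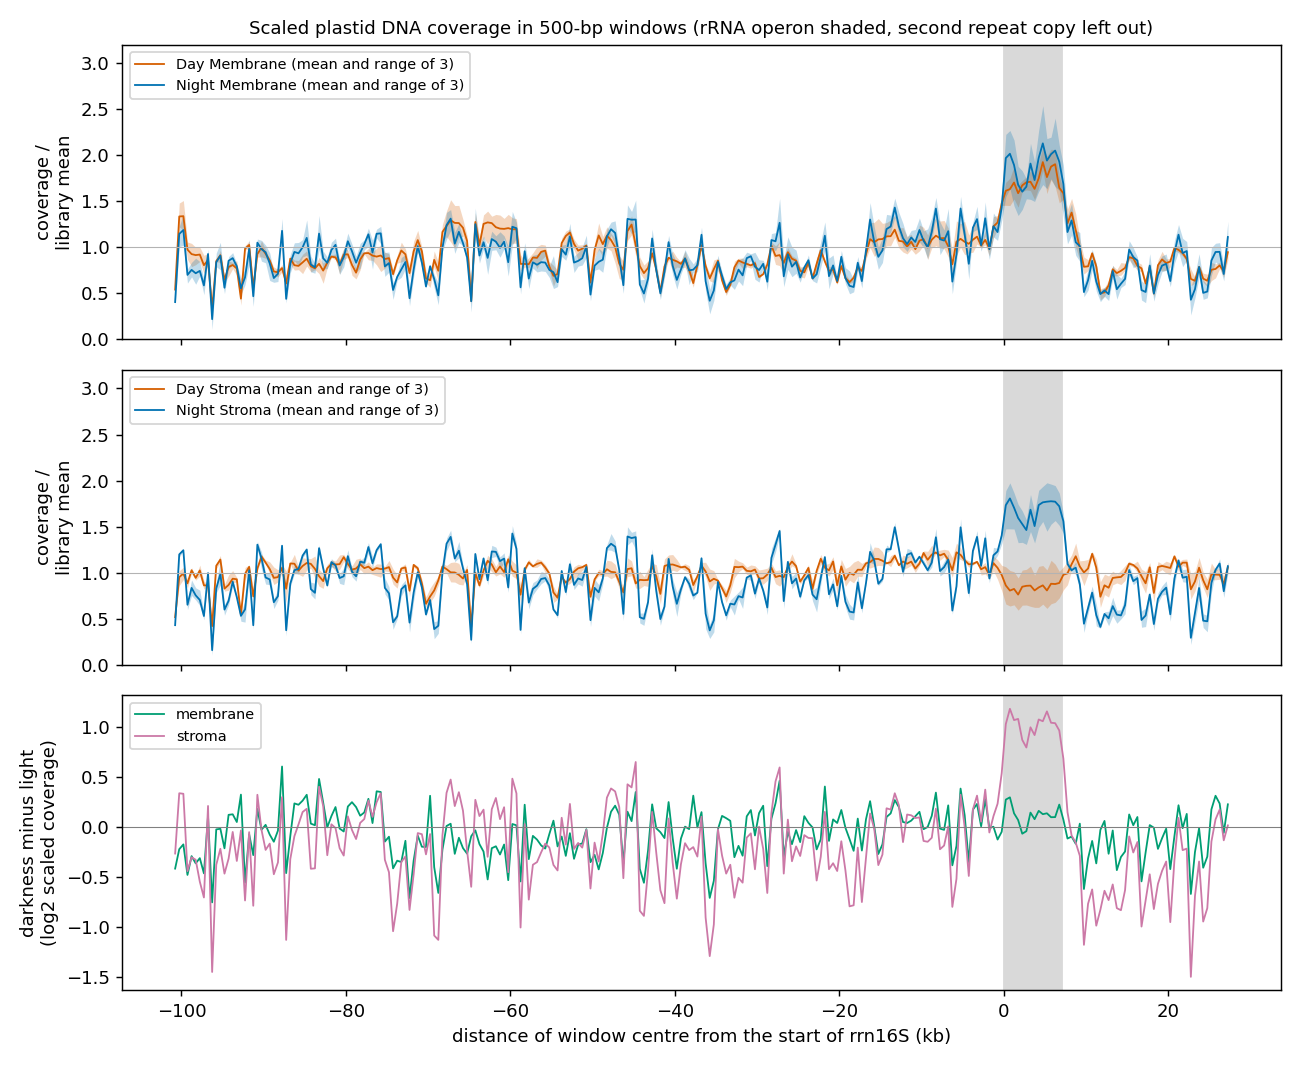
Scaled coverage of 257 windows in membrane (top) and stroma (middle), with the mean and range of the 3 libraries per condition, and the log2 change of each fraction (bottom), against distance from the start of rrn16S in kb, with the rRNA operon shaded. The operon stands near or under the genome mean in Day stroma and above it in the other groups, and the stroma change over the 15 operon windows has a median of 1.04 against 0.13 in membrane.

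At the level of genes, 67 of 113 passed in stroma (59.3%), 36 higher (31.9%) and 31 lower (27.4%). All 67 had Night libraries outside the range of the Day libraries, as did 83.2% of all genes (40.7% higher, 42.5% lower). With Day stroma replicate 3 left out 45 genes passed (24 higher, 21 lower), and with Night stroma replicate 1 left out 42. Scaling to the median window gave 45 higher and 26 lower, and scaling to the single-copy mean 49 and 19.

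All 7 entries of the rRNA operon rose in stroma, with changes of 0.90 to 1.09 (median 0.94, against -0.03 over all genes). rrn16S, the RNA of the small ribosomal subunit, read 0.809, 1.03 and 0.650 in Day stroma and 1.91, 1.87 and 1.48 in Night stroma, a change of 1.09 (SE 0.20, limma adjusted p 0.000186). rrn23S, the RNA of the large subunit, read 0.830, 1.07 and 0.645 against 1.93, 1.82 and 1.51, a change of 1.07 (SE 0.18, limma adjusted p 0.000172). In both genes every Night stroma library lay above every Day stroma library. The unnamed rRNA gene ArthCr091 (0.97), trnA (0.94) and trnR ArthCt127 (0.92) completed the 5 largest rises. All 7 remained past the threshold without Day stroma replicate 3, with rrn16S at 0.93 and rrn23S at 0.89.

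Of 27 tRNA genes outside the operon 14 were higher in stroma and 4 lower (median 0.36), beside 31.9% and 27.4% of all genes. trnF ArthCt102 had the largest rise among these tRNA genes, from 1.10, 1.12 and 0.952 in Day stroma to 1.97, 2.01 and 1.60 in Night stroma (0.81, SE 0.15, limma adjusted p 0.000225). trnE, which supplies both translation and the start of chlorophyll synthesis, changed by 0.71 (SE 0.22, limma adjusted p 0.00951), and trnQ by 0.59 (SE 0.18, limma adjusted p 0.00965). Single libraries ended both calls: trnE gave a limma adjusted p just over 0.05 without Day stroma replicate 3 and 0.0673 without Night stroma replicate 1, and trnQ gave 0.0573 without the latter. The 4 that fell were trnR ArthCt093 (-1.02), trnM (-0.86), trnK (-0.30) and trnG ArthCt092 (-0.29). trnK and this trnG contain introns and are longer, at 2631 and 786 bp. Most of the others are far shorter than a window and so rest on few bases. Without Day stroma replicate 3, 8 of the 27 were higher and 2 lower, and ArthCt100, for example, had a limma adjusted p of 0.0875.

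Of 15 photosystem II genes 6 rose and 5 fell in stroma, beside 31.9% and 27.4% of all genes. The count was 8 higher and 2 lower with median scaling, where psbL, psbN and psbJ did not pass, and 8 higher and 1 lower with single-copy scaling, where psbI did not pass either. psbA, which encodes the D1 reaction-centre protein, read 1.01, 1.05 and 0.894 in Day stroma and 1.24, 1.22 and 1.20 in Night stroma (change 0.31, SE 0.09, limma adjusted p 0.00576). psbC (0.38) and psbB (0.37), which encode the inner antenna proteins, and psbD (0.27), which encodes the D2 reaction-centre protein, also rose, and so did the small-subunit genes psbK (0.33) and psbF (0.27). psbM (-0.65), psbI (-0.51), psbL (-0.39), psbN (-0.35) and psbJ (-0.31) fell. Of the psbD operon, psbD and psbC rose, and psbZ changed by -0.06 without passing. Of 6 genes listed at the psbB operon, psbB rose and psbN fell, while psbT, psbH, petB and petD did not pass. Without Day stroma replicate 3, 4 psb genes remained higher (psbA, psbC, psbK and psbB) and 2 lower (psbM and psbN), and psbD had a limma adjusted p of 0.0509.

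Other genes of photosynthesis and carbon fixation divided in the same fraction, where 31.9% of all genes rose and 27.4% fell. rbcL, the large subunit of Rubisco, read 0.945, 1.10 and 0.964 in Day stroma and 1.52, 1.44 and 1.34 in Night stroma (0.52, SE 0.12, limma adjusted p 0.00115). Of 6 ATP synthase genes 3 rose, atpH, the membrane ring subunit, by 0.49, atpB, the catalytic beta subunit, by 0.39, and atpE by 0.23, and 0 fell. atpE did not pass without Day stroma replicate 3 (limma adjusted p 0.0875). Of 7 photosystem I and assembly genes psaC rose (0.24) and psaJ (-0.69) and ycf3 (-0.33) fell, while psaA, a reaction-centre protein, changed by 0.15 and did not pass (limma adjusted p 0.187). With median and single-copy scaling psaA passed at 0.30 and 0.36.

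Of 11 genes of the NDH complex, which returns electrons to the plastoquinone pool, 6 fell and 0 rose (median -0.29), and the 6 (ndhF, ndhE, ndhA, ndhG, ndhI and ndhD) all lie in the small single-copy region. Over all genes in stroma 27.4% fell and 31.9% rose. ndhF read 1.08, 0.998 and 1.15 in Day stroma and 0.550, 0.609 and 0.693 in Night stroma (-0.81, SE 0.16, limma adjusted p 0.000342). With single-copy scaling 4 NDH genes were lower and 1, ndhH, higher. Without Day stroma replicate 3, 4 were lower.

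A list of 7 held the cytochrome b6f genes and ccsA, which acts in attaching haem to c-type cytochromes. Of these 7 genes 3 fell and 0 rose, beside 27.4% and 31.9% of all genes. With single-copy scaling 2 of the 7 were lower and 1, petD, higher (0.18, limma adjusted p 0.0082). petL, a small subunit, had the largest fall of any gene, from 0.719, 0.773 and 0.927 in Day stroma to 0.117, 0.359 and 0.295 in Night stroma (-1.79, SE 0.41, limma adjusted p 0.0014). It is only 96 bp long. ccsA fell by 0.81 (SE 0.18, limma adjusted p 0.000955) and petN by 0.25, a call that neither other scaling kept (limma adjusted p 0.291 and 0.658). Of 12 small-subunit ribosomal protein genes 4 rose, among them rps14 (0.46) and rps12 (0.32), and 3 fell, among them rps19 (-0.98) and rps18 (-0.50), shares near those of all genes. Leaving out Day stroma replicate 3 left 1 higher and 2 lower. Of 9 large-subunit ones 4 fell and 0 rose, led by rpl22 (-0.63).

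Few genes of the transcription machinery and few housekeeping genes passed, against 59.3% of all genes. Of the 4 genes of the plastid-encoded RNA polymerase only rpoA fell (-0.44), and rpoB (0.09) and rpoC2 (-0.03) did not pass. rpoB passed as higher with median and single-copy scaling (0.24 and 0.30), and rpoC2 did too (0.12 and 0.18), so the direction of rpoC2 depends on the scaling. Of 5 genes known as targets of the nuclear-encoded polymerase, 1 fell and 0 rose: accD, a subunit of acetyl-CoA carboxylase, changed by -0.25 (SE 0.10, limma adjusted p 0.0324). Its limma adjusted p was 0.123 without Day stroma replicate 3, 0.0846 without Night stroma replicate 1, 0.0784 without Night stroma replicate 2, 0.0554 with median scaling and 0.354 with single-copy scaling. clpP, a protease subunit, changed by -0.14, ycf2 by 0.07 and the longer ycf1 entry by -0.28, and they did not pass. clpP was 0.01 with median scaling and 0.06 with single-copy scaling.

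**Figure D4:**
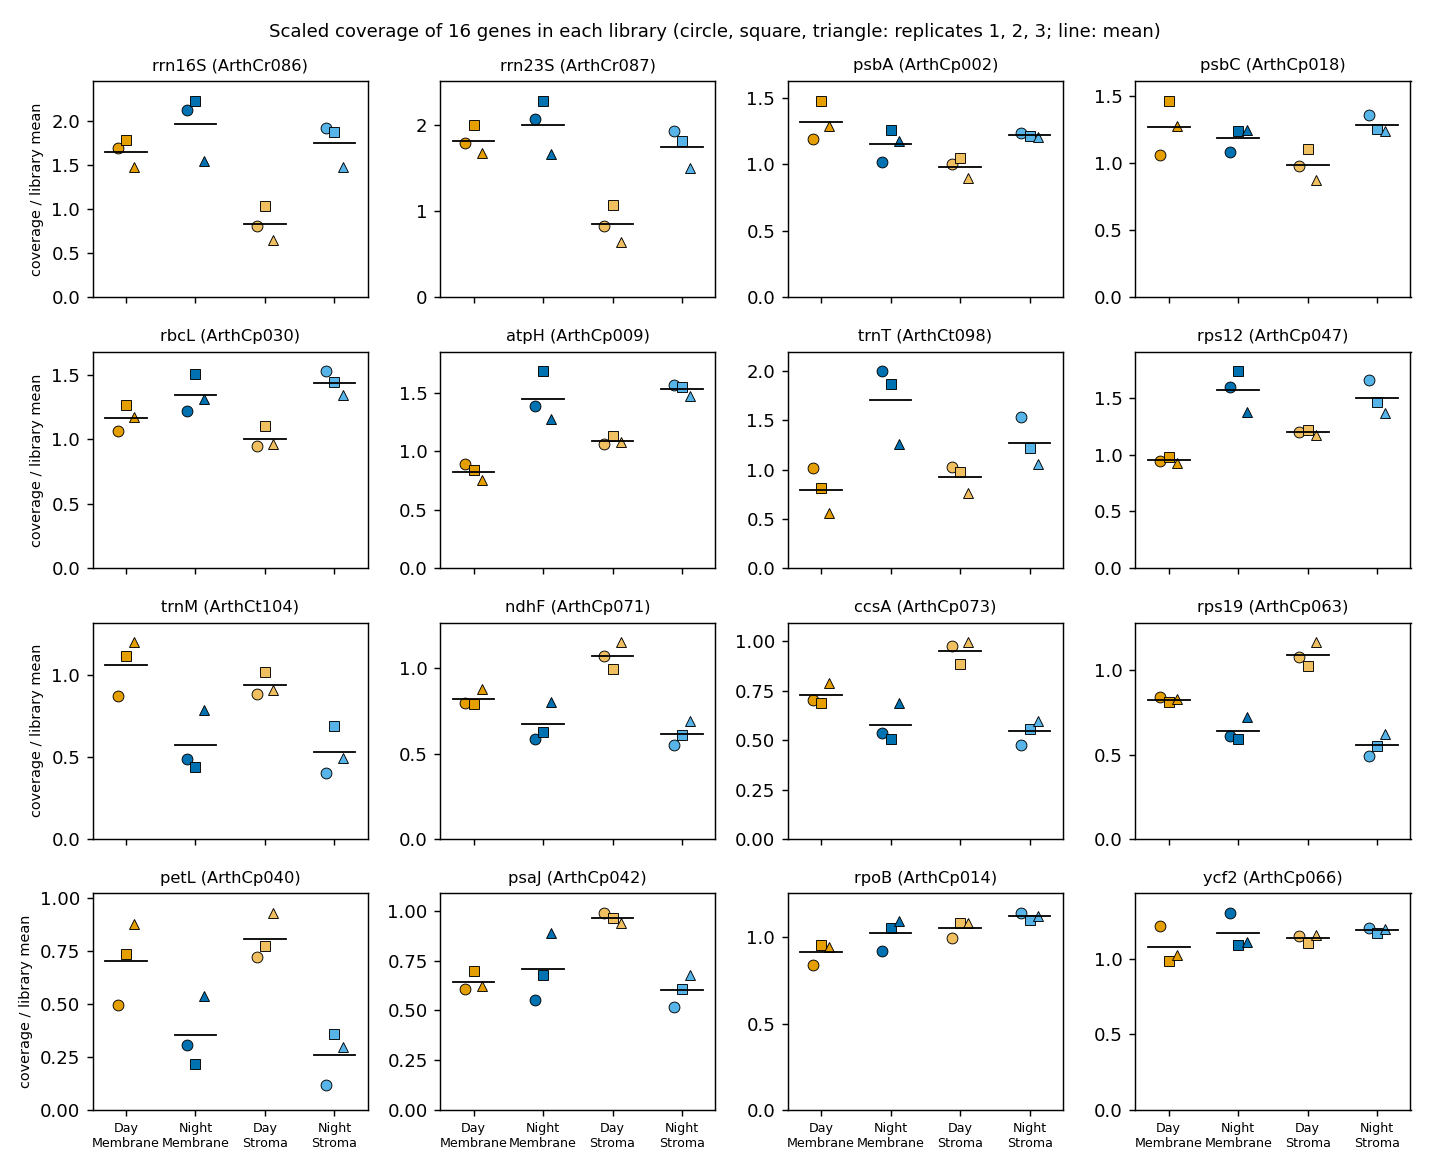
Scaled coverage of 16 genes in each leaf library, by group and replicate, with group means. rrn16S and rrn23S are lower in Day stroma (0.645 to 1.07) than in any library of the other groups, atpH and rps12 are higher in Night in both fractions, and trnM and petL lower, although the membrane libraries of petL overlap.

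Within the membrane fraction, 13 of 257 windows passed (5.06%), 7 higher (2.72%) and 6 lower (2.33%), and 81 had an unadjusted limma p under 0.05. In 9 of the 13 (3.5% of all windows) the Night and Day libraries did not overlap, against 19.5% of all windows without regard to the test. The highest were 13001 to 13500 at atpH (0.60), 17501 to 18000 in rpoC2 (0.48) and 73501 to 74000 in psbB (0.46). The window at atpH read 0.777, 0.812 and 0.736 in Day membrane and 1.12, 1.31 and 1.10 in Night membrane (SE 0.09, limma adjusted p 6.21e-05). Of the 3 lowest, 28501 to 29000 at psbM passed (-0.71, limma adjusted p 0.0255), and 4501 to 5000 (-0.75) and 65001 to 65500 (-0.71), both without an annotated gene, did not. None of the 15 operon windows passed (median 0.13).

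Single libraries moved the membrane count. It was 20 without Day membrane replicate 1, 3 without Day membrane replicate 3, 4 without Night membrane replicate 2 and 34 without Night membrane replicate 3, and 65 with median scaling, 29 higher and 36 lower. Same-numbered Day and Night membrane libraries deviated together, with correlations of 0.67, 0.59 and 0.65, and a fit with replicate number as a block and only the leaf libraries, chosen after seeing the data, gave 96 windows. Adding the block to the fit of all libraries gave 12.

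Of 113 genes 21 passed in membrane (18.6%), 17 higher (15%) and 4 lower (3.54%). In 16 of them (14.2% of all genes) the libraries did not overlap, as in 25.7% of all genes without regard to the test. The count was 13 without Day membrane replicate 3 and 13 without Night membrane replicate 2, 39 without Night membrane replicate 3, and 45 with the replicate block and only leaf libraries. Median scaling gave 18 higher and 8 lower. Of 27 tRNA genes outside the operon 8 rose and 1 fell (median 0.37, against 0.07 over all genes). trnT ArthCt098 read 1.02, 0.812 and 0.560 in Day membrane and 1.99, 1.86 and 1.25 in Night membrane (1.11, SE 0.22, limma adjusted p 0.000673). trnQ rose from 1.11, 1.29 and 1.06 to 2.58, 2.56 and 1.66 (0.95, SE 0.18, limma adjusted p 0.000673), and trnP by 0.61. In all of these every Night library was above every Day library.

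atpH read 0.888, 0.836 and 0.752 in Day membrane and 1.39, 1.68 and 1.28 in Night membrane (0.81, SE 0.12, limma adjusted p 1.87e-05). rps12 rose from 0.945, 0.979 and 0.924 to 1.60, 1.73 and 1.37 (0.72, SE 0.13, limma adjusted p 0.000476). psbK (0.55), psbF (0.49), psaC (0.38), rpl32 (0.36), rpl33 (0.31) and rps2 (0.27) were among the others that passed. The falls were trnM (-0.93, limma adjusted p 0.000673), psbM (-0.67, limma adjusted p 0.0206), rpl23 (-0.35) and psaB, a photosystem I reaction-centre protein (-0.27). psbM had a limma adjusted p of 0.0794, 0.0612 and 0.147 without Day membrane replicate 3, Night membrane replicate 1 and Night membrane replicate 2. petL had the lowest value (-1.06) and did not pass (limma adjusted p 0.0748).

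None of the 7 rRNA operon entries passed in membrane, with changes from -0.03 to 0.32. rrn16S read 1.69, 1.78 and 1.48 in Day membrane and 2.12, 2.23 and 1.55 in Night membrane, and these overlapped. No gene passed among the 11 NDH, 7 cytochrome b6f, 4 polymerase and 5 nuclear-polymerase genes, nor in the psbD and psbB operons, with list medians from -0.09 to 0.13. Over all genes only 18.6% passed in membrane (15% higher, 3.54% lower), so 0 calls in lists this short say little about their members. Among single genes, psbA (-0.20), psbD (-0.05), psbB (0.23), psaA (-0.17), rbcL (0.20), atpB (0.17), ndhF (-0.30), rpoB (0.17), rpoC2 (0.18), accD (-0.09), clpP (0.10), ycf1 (-0.04), ycf2 (0.12) and trnE (0.57) did not pass. With the replicate block and only leaf libraries, rrn16S (limma adjusted p 0.049), psbB (0.0384) and trnE (0.00226) passed as higher and petL (0.00635) and ndhF (0.0102) as lower. With single-copy scaling psbB, rpoB, rpoC1, rpoC2, clpP, petD and ndhH passed as higher and petL as lower, with median scaling rpoB and rpoC2 passed, and with single-copy scaling psbD and ycf1 were above 0 (0.01 and 0.03).

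The fractions share no library, and their changes are set side by side here as a description. They may not be independent. Deviations of same-numbered membrane and stroma libraries correlated at 0.46, 0.59 and 0.52 in Day and at -0.01, -0.41 and 0.77 in Night. Across 113 genes the stroma change and the membrane change correlated at Pearson r = 0.70 and Spearman rho = 0.73, with the same sign in 84 genes. Across 257 windows r was 0.69, and with the operon left out it was 0.73 over 242 windows. These are across genes and windows, which share libraries and base composition. Of the 36 genes that rose in stroma, 30 were above 0 in membrane (median 0.27), and of the 31 that fell, 26 were below 0 (median -0.20). Of all 113 genes, 65 were above 0 in membrane (median 0.07). 11 genes were called higher in both, which is 64.7% of the membrane rises and 30.6% of the stroma rises, among them atpH, psaC, psbF, psbK, rps12, trnD, trnP and trnQ. trnM, psbM and rpl23 were called lower in both, and 0 genes were called in opposite directions with scaling to the library mean. The other scalings called psaB lower in membrane and higher in stroma. Its changes were -0.25 and 0.26 with median scaling, and -0.21 and 0.31 with single-copy scaling. The operon windows stood off this relation, with a median change of 1.04 in stroma and 0.13 in membrane.

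**Figure D5:**
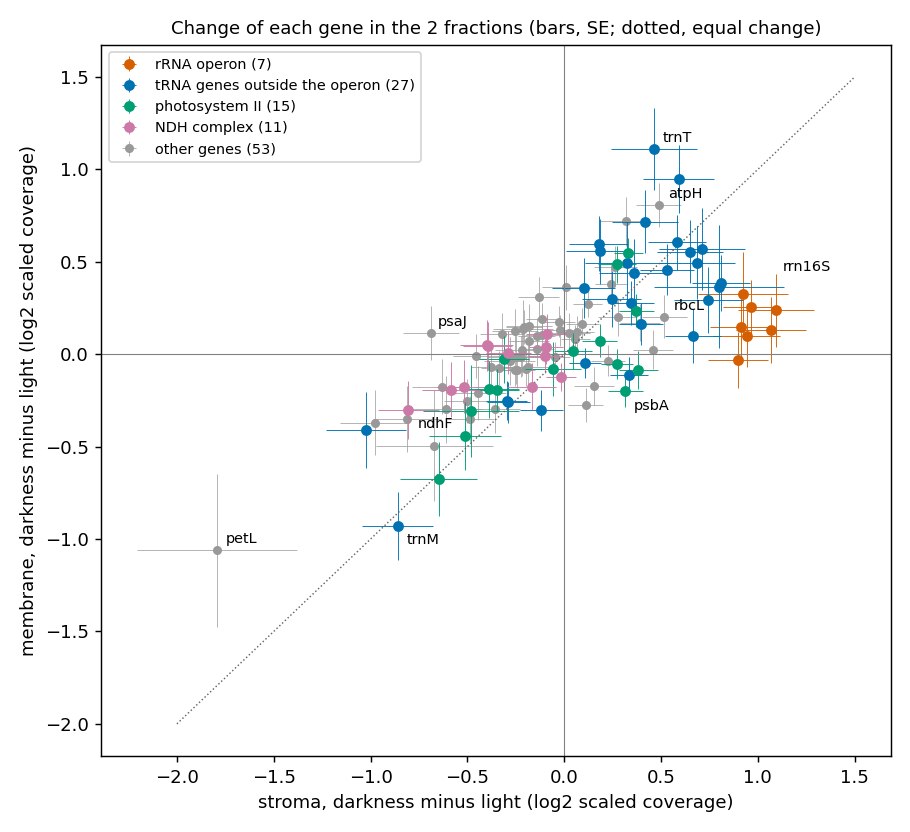
Log2 change from light to darkness of each of 113 genes in stroma (x axis) and membrane (y axis), with SE bars from limma and the line of equal change dotted; colours mark 4 gene lists. Most genes lie along a rising band (r = 0.70), and the 7 rRNA operon entries lie to its right, at 0.90 to 1.09 in stroma and -0.03 to 0.32 in membrane.

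The difference of the log2 membrane/stroma ratios tests directly whether darkness acted differently in the fractions. Of 257 windows 25 passed (9.73%), 6 higher (2.33%) and 19 lower (7.39%) in darkness, and in all 25 the Night and Day values paired by title number did not overlap, as in 51.8% of all windows (37% higher, 14.8% lower). Of the 15 operon windows 13 were lower, as an unbroken stretch at positions 101501 to 108000 (mean -0.90). The 3 lowest were 106001 to 106500 in rrn23S (-1.02, SE 0.25, limma adjusted p 0.0241), 102501 to 103000 across rrn16S and trnI (-1.01) and 106501 to 107000 in rrn23S (-0.94). The 3 highest, at 123501 to 124000 across rps15 and ycf1 (0.83), 119001 to 119500 in ndhI (0.81) and 112501 to 113000 in ndhF (0.80), did not pass. Per library, the log2 ratio of operon to single-copy coverage of membrane minus that of stroma changed by -1.03 from Day to Night (SE 0.17, exact two-sided permutation p = 0.1 over pairs matched by title number, the smallest possible, with no overlap). It was -0.82 without Day stroma replicate 3.

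Of 113 genes 9 passed this test (7.96%), 8 lower (7.08%) and 1 higher (0.885%), and paired values did not overlap in 45.1% of all genes. Median and single-copy scaling each gave 5 higher and 11 lower, and with sample weights 21 were higher and 15 lower. A leaf-only fit with the replicate block gave 22 and 14, and the block by preparation 10 and 11. 5 of the 7 operon entries were lower. rrn23S was 1.13 higher in membrane than in stroma in Day and 0.19 higher in Night, a difference of -0.94 (SE 0.25, limma adjusted p 0.0309). trnI ArthCt107 (-0.93), trnA (-0.84), rrn4.5S (-0.76) and ArthCr091 (-0.71) passed with it. rrn16S, at 1.01 in Day and 0.16 in Night, had a difference of -0.86 and just missed the threshold (limma adjusted p 0.055), and trnR ArthCt127 did not pass (-0.60, limma adjusted p 0.211). With median or single-copy scaling 2 of the 7 passed, although their median difference was then more negative, at -0.97 and -0.98 against -0.84.

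Outside the operon, psbA went from a membrane/stroma log2 ratio of 0.42 in Day to -0.09 in Night (difference -0.51, SE 0.13, limma adjusted p 0.0242). Its Day membrane libraries read 1.19, 1.48 and 1.29 and its Night membrane libraries 1.01, 1.26 and 1.18, so the shift combined a rise in stroma with a membrane change of -0.20 that did not pass. psbC went from 0.36 to -0.11 (-0.47, limma adjusted p 0.0424) and the neighbouring trnS ArthCt117 from 0.35 to -0.10 (-0.45, limma adjusted p 0.0424). psbD differed by -0.33 (limma adjusted p 0.0791) and passed with median scaling at -0.45, as did psaA (-0.45) and psaB (-0.51). psaJ, a small photosystem I subunit, was the single gene called higher with scaling to the library mean, going from -0.59 to 0.21 (0.80, SE 0.21, limma adjusted p 0.0242). It read 0.607, 0.696 and 0.625 in Day membrane and 0.552, 0.680 and 0.892 in Night membrane, against 0.990, 0.963 and 0.941 in Day stroma and 0.519, 0.609 and 0.676 in Night stroma. petL (0.73) and trnT (0.65) were next and did not pass (limma adjusted p 0.375 and 0.181).

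Single libraries decided the counts of this test. 0 windows passed without Day membrane replicate 2, Day stroma replicate 3, Night stroma replicate 1, Night stroma replicate 2 or Night membrane replicate 3, with 61, 54, 55, 63 and 58 at an unadjusted limma p under 0.05, and 8 passed without Day stroma replicate 1. For genes the count was 0 without Day stroma replicate 3, Night stroma replicate 1 or Night membrane replicate 3 (21, 21 and 26 at an unadjusted limma p under 0.05), 2 without Day membrane replicate 2, 3 without Night stroma replicate 2, and 14 without Night membrane replicate 1 or 2. With only leaf libraries in the fit 45 windows passed, 25 higher and 20 lower. The direction of rrn23S did not turn in any of these: without Day stroma replicate 3 its difference was -0.75 (limma adjusted p 0.162).

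None of the 11 NDH, 7 cytochrome b6f, 6 ATP synthase, 4 polymerase, 12 small-subunit and 9 large-subunit ribosomal protein genes passed, with list medians of 0.30, 0.17, 0.12, 0.21, 0.24 and 0.35 against 0.15 over all genes. Over all genes only 7.96% passed (0.885% higher, 7.08% lower), so 0 calls in these lists are near that share. With median scaling 1 NDH gene, 1 small-subunit and 2 large-subunit genes passed as higher and 1 small-subunit gene as lower, and the median over all genes was 0.02. rbcL (-0.31), psaA (-0.32), psbB (-0.14), atpB (-0.22), ndhF (0.50), rpoB (0.07), rpoC2 (0.20), accD (0.16), clpP (0.24), ycf1 (0.24), ycf2 (0.05), trnE (-0.14) and trnQ (0.36) did not pass either. The values for rpoB and ycf2 were below 0 with median scaling (-0.05 and -0.07).

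The leaf change was last set beside the seedlings, whose libraries it does not share. Across genes the stroma change correlated with the scaled log2 coverage of the Col0 seedling stroma at r = 0.87 (Spearman rho 0.88, n = 113 genes), and the membrane change at r = 0.72. These are descriptions across genes, which share libraries and base composition. With the membrane/stroma ratio of the seedlings the stroma change correlated at 0.60 in Col0, 0.87 in sig2-2 and 0.50 in sig6-1. Over windows the correlation with the Col0 ratio was 0.44, and with the operon left out 0.11 over 242 windows.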

How the data were processed

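SOLINA read coverage of plastid DNA was deposited by the authors as 1 table of whole-number coverage per base over 154477 positions, here taken as signal that is not normalized. Per the submitters' processing notes, the tools were Trim Galore 0.4.1, Bowtie2 2.2.8.9 and bedtools 2.25.0 with genome build TAIR10. The treatment of duplicates and of reads that match both repeat copies is not given in the sources used here. Libraries were assigned to groups by their titles, and 0 pairs held identical values.

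Coverage was averaged over 500-bp windows (309, of which 52 in the second repeat copy were left out) and over 113 genes, and divided by the library mean. Gene names and extents came from a RefSeq gene table. log2 values were fitted with limma 3.58.1 in R 4.3.3, with all 30 libraries of the first part of the series (10 groups of 3) sharing 1 estimate of spread. Tests were two-sided with Benjamini-Hochberg adjustment within each contrast over all features, called at 0.05. Values with 1 number per library had an exact two-sided permutation test. Scripts were tested on simulated data. Each leaf library held 14.7 to 246.5 Mb of coverage. The lowest window depth was 17.9 in the leaf libraries and 13.7 in all libraries of the fit, in sig2-2 membrane replicate 3. Depth errors cover counting only.

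Same-numbered Day and Night membrane libraries deviated together from their group means (r = 0.67, 0.59 and 0.65). The same correlations of stroma libraries were 0.08, -0.08 and 0.66. The main fit and the permutation tests within a fraction did not pair Day with Night libraries. Only the alternative fits with a replicate block did so. The labels do not say what a number marks. Genes were named by rule: in each contrast the 5 largest called changes each way whose libraries do not overlap (the 3 largest where fewer than 3 passed), 17 fixed genes, and the 3 highest and lowest windows. The members and gene lists were chosen with earlier results of these data known. Alternatives were scaling, libraries in the fit, replicate block, low values, pseudocount, sample weights, window size and each library left out. Some single-gene values are not reported here.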

Additional observations from a re-analysis of the deposited data

Results flagged for a closer look

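The darkness effect differed between membrane and stroma, by the test of the difference itself, in 25 windows and 9 genes. On the log2 scale the gene differences, with their limma adjusted p below 0.05, were -0.94 for rrn23S, -0.93 for trnI ArthCt107, -0.84 for trnA, -0.76 for rrn4.5S, -0.71 for ArthCr091, -0.51 for psbA, -0.47 for psbC and -0.45 for trnS ArthCt117, and 0.80 for psaJ. Without Day stroma replicate 3, 0 windows and 0 genes passed, with 54 and 21 at an unadjusted limma p under 0.05.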

How the results depend on the processing

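Membrane window calls (13) were 65 with median scaling, 59 with single-copy scaling, 23 with only leaf libraries in the fit, 127 with sample weights, 96 with the replicate block and only leaf libraries (chosen after seeing the data), 113 of 643 windows of 200 bp, and 0 of 128 windows of 1000 bp (29 at an unadjusted limma p under 0.05). Stroma window calls (153) were 374 with 200 bp and 64 with 1000 bp. Difference window calls (25) were 47, 44, 45, 86, 101, 46 and 12 under median scaling, single-copy scaling, leaf only, weights, the leaf-only block, 200 bp and 1000 bp, and 16 with the replicate block and 52 with the block by preparation. Membrane gene calls (21) were 38 with single-copy scaling, 59 with weights and 45 with the leaf-only block. Difference gene calls (9) were 16 with either scaling, 5 leaf only, 21 with the block by preparation, 36 with weights and 36 with the leaf-only block. The weights did not reach their convergence tolerance. With 1 library left out, windows ranged from 3 to 34 in membrane, 108 to 150 in stroma and 0 to 37 for the difference, genes from 13 to 39, 42 to 68 and 0 to 14, and the operon ratio from 0.08 to 0.39, 1.02 to 1.40 and -1.21 to -0.82. The replicate block in all groups gave 12 membrane and 152 stroma windows, and 20, 65 and 9 genes. Deviations of same-numbered membrane and stroma libraries from their group means correlated at 0.46, 0.59 and 0.52 in Day and -0.01, -0.41 and 0.77 in Night. The labels do not say whether a number marks a shared preparation. Among the genes named by rule, 8 uncalled values changed sign under some alternative. With weights the difference was -0.0182 for petL and 0.00296 for trnE. With single-copy scaling the membrane change was 0.0147 for psbD and 0.0312 for ycf1. With median and single-copy scaling the difference was -0.0513 and -0.0633 for rpoB and -0.0722 and -0.0842 for ycf2, and the stroma change was 0.119 and 0.175 for rpoC2 and 0.0055 and 0.0617 for clpP. With 1 library left out, psbD in membrane ranged from -0.13 to 0.0301, ycf1 in membrane from -0.11 to 0.00719, rpoC2 in stroma from -0.0697 to 0.0164, and the difference from -0.0286 to 0.145 for ycf2 and from -0.324 to 0.0805 for trnE. The cause was not tested. Leaving out low values or adding a pseudocount of 0.1 moved no count by over 1.5 times.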
